A study of Mus musculus with 4 samples.

Results

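The genes described here encode AKT, the kinase that switches it on and the mTOR and TSC complexes downstream of it. They are a fixed list of 10 names, namely *Akt1*, *Akt2*, *Pdpk1*, *Mtor*, *Rptor*, *Rictor*, *Mlst8*, *Tsc1*, *Tsc2* and *Rheb*. The list was drawn up by role, with earlier results of these data known. All 10 had a row among the 17104 genes of the deposited table. The libraries came from sorted bone marrow YFP+, c-kit+ cells, the fraction enriched for leukemic stem cells (LSCs), of male C57 mice with MLL-AF9 acute myeloid leukemia at week 6 of the secondary transplantation. There were 2 CD37 fl/fl libraries and 2 CD37 -/- libraries.

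Both groups descended from lineage-negative marrow of CD37 fl/fl, Cre+ mice, in which a tamoxifen-inducible Cre recombinase is expressed from the Rosa26 locus in all tissues. These cells had been infected with a retrovirus carrying MLL-AF9 and YFP and passed into irradiated recipients. Tamoxifen deleted the floxed part of Cd37 in the CD37 -/- group, while the CD37 fl/fl group received corn oil. CD37 fl/fl cells are therefore not wild type, since they carry the floxed allele and the inducible Cre. The groups differ in tamoxifen and in activation of Cre as well as in Cd37, and these cannot be told apart in these libraries. Whether the replicates of a group came from separate mice or from pooled animals is not stated beyond the word independent, so the p-values measure the spread between these libraries.

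AKT is a serine/threonine kinase that is recruited to the membrane by the lipid product of PI3K and is phosphorylated there by PDK1, the product of *Pdpk1*, and by the mTOR complex 2. Active AKT phosphorylates TSC2 and so relieves the small GTPase RHEB, which turns on the mTOR complex 1, the driver of protein synthesis and cell growth. This pathway is often active in acute myeloid leukemia, and its activity is set by phosphorylation, which mRNA levels do not measure.

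The deposited values were FPKM, fragments per kilobase of gene, scaled to library size. The kilobases were those of the whole gene span with its introns, so that genes with long introns had low FPKM at a good read count. On this scale 5 of the 10 genes (*Pdpk1*, *Mtor*, *Rptor*, *Rictor* and *Tsc1*) lay under a mean FPKM of 1 with between 194 and 1557 reads per library. Of these, *Rictor* was under 1 in CD37 fl/fl libraries per kilobase of exons as well (mean 0.831). Values were compared as log2(FPKM + 0.1), and the 11774 genes whose FPKM averaged 0.1 or more were tested with limma. All 10 members passed this filter.

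Over all genes tested, 0 had an adjusted p under 0.05 by limma, adjusted by the Benjamini-Hochberg method, and 2606 had an unadjusted p under 0.05, and limma-voom on recovered reads also gave 0 at an adjusted p. The background of calls at an unadjusted p under 0.05 was thus 22.1% of genes, with 16.5% higher and 5.61% lower in CD37 -/- LSCs. The median of the log2 fold changes over all tested genes was 0.23, and it was 0.55 after rescaling to equal sums (TPM), 0.07 after division by the upper quartile and -0.03 after quantile normalization. Of the calls at an unadjusted p, 74.7% were higher, 93.3% after TPM rescaling, 54.9% with the upper quartile and 47.5% after quantile normalization. *Cd37*, the deleted gene, had an FPKM of 56.6 and 46.8 among CD37 fl/fl against 23.2 and 22.9 among CD37 -/- libraries, a log2 fold change of -1.15 (adjusted p = 0.130 by limma). These values count the whole gene, and the deleted exons were not looked at on their own. The library total that the FPKM imply was 15327356 (replicate 1) and 17327700 (replicate 2) in the CD37 fl/fl group, and 17740457 and 22627493 in the CD37 -/- group, in reads.

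Of 11 markers of the sorted leukemic cells, 10 were in the table, with 4 higher and 3 lower in CD37 -/- libraries without overlap. Over all tested genes, 42.2% were higher and 18.6% lower without overlap, the background for the marker counts here. *Kit*, the sorting marker, had an FPKM of 0.170 and 0.325 among CD37 fl/fl against 0.327 and 0.434 among CD37 -/- libraries, the nearest values being almost level, and *Ptprc*, *Hoxa10* and *Meis1* were also higher. The granule protease genes *Prtn3* and *Ctsg* and the peroxidase gene *Mpo* were lower, *Mpo* with 80.3 and 51.6 against 34.4 and 20.8. *Ctsg* had 403 and 1357 against 375 and 362, so that CD37 fl/fl replicate 2 alone was high. The granule protease gene *Elane* overlapped between the groups, with 1750 and 1844 against 1884 and 1760, as did *Hoxa9* and *Csf3r*. The summed FPKM of markers of other cells differed between libraries. It was 61.0 and 5.17 against 577 and 144 for 8 erythroid markers (all 8 higher without overlap), 18289 and 3579 against 18331 and 10208 for 5 neutrophil granule genes, and 275 and 36.0 against 14.4 and 51.9 for 8 dendritic cell and macrophage markers, always CD37 fl/fl first. The 3 T and NK cell markers in the table summed to at most 0.17, the 6 stroma and endothelium markers to at most 1.67, and of 5 B cell markers *Cd79b* made up nearly the whole sum of 6.64 to 15.4. The part of such cells in the results below was not tested. In bulk RNA, a smaller share of a cell type and less RNA per cell cannot be told apart.

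*Akt1* (ENSMUSG00000001729, chromosome 12 of GRCm38, 112653821 to 112674884, minus strand) encodes the AKT isoform known for growth and survival. Its FPKM was 9.82 and 10.8 among CD37 fl/fl against 16.6 and 20.5 among CD37 -/- libraries, from 3172 to 9757 reads. Both CD37 -/- libraries lay above both CD37 fl/fl libraries, and the gap between the groups was larger than the spread within either. The mean was 10.3 ± 0.697 (SD, n = 2) against 18.6 ± 2.7 (SD, n = 2), a ratio of 1.80. On the log2 scale the fold change was 0.83 (standard error 0.23, 95% interval 0.25 to 1.41, unadjusted p = 0.0137, adjusted p = 0.165 by limma). This lay above 83.2% of all tested genes.

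*Akt2* (ENSMUSG00000004056, chromosome 7, 27591552 to 27640826, plus strand) encodes the isoform best known for insulin-stimulated glucose uptake. Its FPKM was 2.55 and 1.72 among CD37 fl/fl against 2.28 and 2.54 among CD37 -/- libraries, from 1471 to 2837 reads. It was the only member whose groups overlapped, as CD37 fl/fl replicate 1 held the highest value. The log2 fold change was 0.19 with a 95% interval from -0.52 to 0.90 (adjusted p = 0.697 by limma), under the median of all tested genes. It was -0.09 after quantile normalization and -0.08 without CD37 fl/fl replicate 2.

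*Pdpk1* (ENSMUSG00000024122, chromosome 17, 24073680 to 24150924, minus strand) encodes PDK1, which phosphorylates the activation loop of AKT and of several related kinases. Its FPKM was 0.245 and 0.318 among CD37 fl/fl against 0.521 and 0.891 among CD37 -/- libraries, from 290 and 425 reads against 714 and 1557. The groups did not overlap, while the CD37 -/- libraries differed more from each other than the CD37 fl/fl libraries did. It had the largest log2 fold change of the 10 genes, 1.05 (standard error 0.34, 95% interval 0.19 to 1.91, unadjusted p = 0.0258, adjusted p = 0.185 by limma). The ratio of the means was 2.51. With a pseudocount of 1 the log2 fold change was 0.41, and limma-voom on recovered reads gave 1.29.

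**Figure D1:**
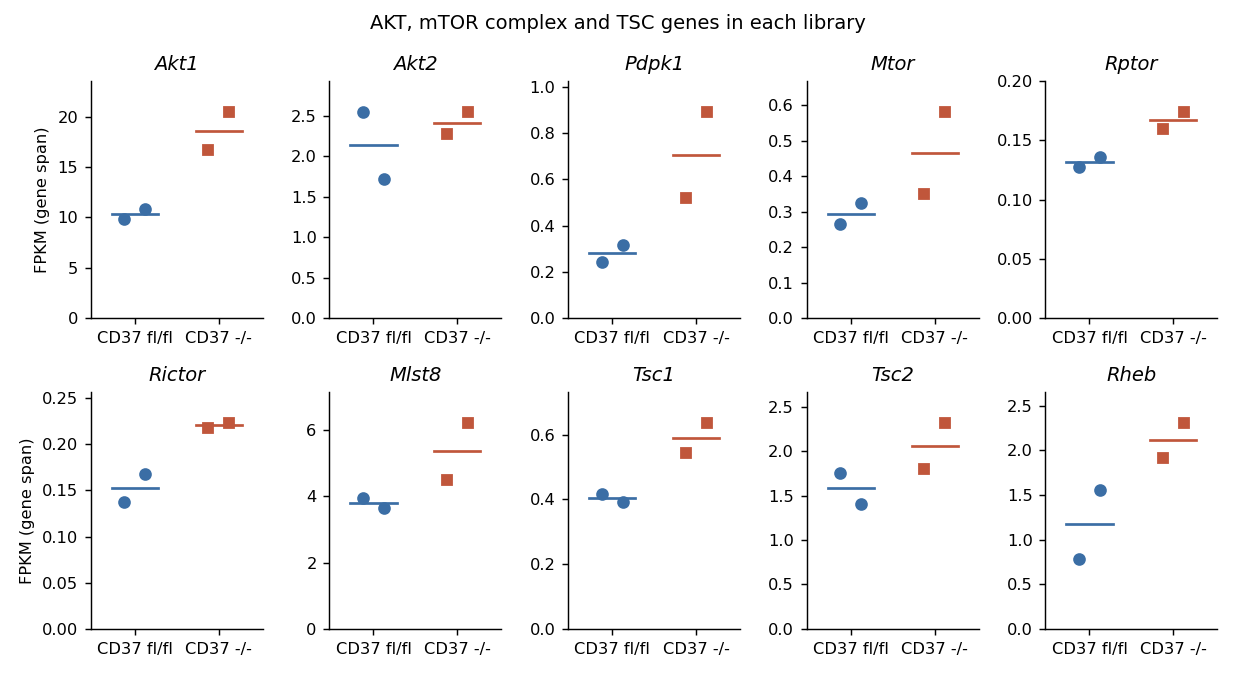
FPKM per kilobase of gene span of the 10 genes, with CD37 fl/fl libraries as circles and CD37 -/- libraries as squares, replicate 1 on the left of each pair and the group mean as a line. Each axis starts at 0, and only *Akt2* has CD37 fl/fl and CD37 -/- values that overlap.

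The regions before the start sites of *Akt1* and *Akt2* are shown because the groups overlapped for the one isoform and not for the other, and those of *Mtor* and *Tsc2* because they held an ETS core. They were taken from RefSeq windows on GRCm38.p6 that run from 250 bases before to 50 after a start, of which all 10 genes together had 15. Letters were searched on both strands. Capitals mark TGTTTAC, the core that FOXO factors bind, or CCGGAAG, the core that ETS factors bind. Each line gives 60 bases, 5′ to 3′ on the strand of the gene.
Akt1, chr12:112675012-112675071, minus strand: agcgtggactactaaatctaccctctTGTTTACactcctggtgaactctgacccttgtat
Akt2, chr7:27591492-27591551, plus strand: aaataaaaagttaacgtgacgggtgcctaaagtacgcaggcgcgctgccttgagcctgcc
Mtor, chr4:148448332-148448391, plus strand: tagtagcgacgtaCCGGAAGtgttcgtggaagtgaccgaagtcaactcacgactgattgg
Tsc2, chr17:24632628-24632687, minus strand: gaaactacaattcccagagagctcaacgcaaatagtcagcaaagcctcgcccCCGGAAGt

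The *Akt1* stretch begins 187 bases before the outermost start of the gene, and its TGTTTAC begins 161 bases before it. This stretch was placed around those letters. The *Akt2* stretch is the 60 bases just before the outermost start of that gene, so the stretches of the isoforms do not cover matching positions. In the *Mtor* and *Tsc2* stretches, CCGGAAG begins 237 and 8 bases before the RefSeq start. A second *Akt1* window, 608 bases further into the gene, held no such letters. TGTTTAC or its reverse complement was in 1 of the 15 member windows and in 3.65% of all 32851 windows. The ETS letters were in 2 of 15 and in 8.86% of all windows. The E-box CACGTG was in 1 member window (7.15% of all), GGGCGG in 6 (35.7%) and CCAAT in 4 (37.4%), counted in windows, of which *Akt2* has 4. The search describes letters only.

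*Mtor* (ENSMUSG00000028991, chromosome 4, 148448611 to 148557683, plus strand) encodes the kinase that both mTOR complexes share. Its FPKM was 0.264 and 0.326 among CD37 fl/fl against 0.351 and 0.581 among CD37 -/- libraries, from 442 and 616 reads against 679 and 1435. CD37 -/- replicate 1 lay only slightly above CD37 fl/fl replicate 2, and CD37 -/- replicate 2 stood apart at the top. The log2 fold change was 0.49 with a 95% interval from -0.33 to 1.32 (adjusted p = 0.391 by limma), and it was 0.19 without CD37 -/- replicate 2.

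*Mlst8* (ENSMUSG00000024142, chromosome 17, 24473551 to 24479078, minus strand) encodes the small subunit that binds the kinase domain of mTOR in both complexes. Its FPKM was 3.93 and 3.63 among CD37 fl/fl against 4.49 and 6.21 among CD37 -/- libraries, from 333 and 348 reads against 440 and 777. The groups did not overlap, with a log2 fold change of 0.47 (95% interval -0.18 to 1.12, adjusted p = 0.317 by limma). It was 0.24 without CD37 -/- replicate 2. *Bricd5*, on the other strand, covers 28.7% of the span of *Mlst8*, and whether reads were assigned by strand is not given in the sources used here.

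*Rptor* (ENSMUSG00000025583, chromosome 11, 119602905 to 119899576, plus strand) encodes raptor, the scaffold that brings substrates to the mTOR complex 1. Its FPKM was 0.128 and 0.136 among CD37 fl/fl against 0.160 and 0.174 among CD37 -/- libraries, from 581 to 1168 reads. The values were tight within each group and did not overlap, yet the difference was small. The log2 fold change of 0.20 (95% interval -0.51 to 0.92, adjusted p = 0.678 by limma) was at the level of the median gene, and it was -0.12 after quantile normalization. As the pseudocount of 0.1 is close to these values, it shrinks the change, and limma-voom on recovered reads gave 0.33.

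*Rictor* (ENSMUSG00000050310, chromosome 15, 6708379 to 6800401, plus strand) encodes the scaffold of the mTOR complex 2, the kinase of the hydrophobic motif of AKT. Its FPKM was 0.138 and 0.168 among CD37 fl/fl against 0.217 and 0.223 among CD37 -/- libraries, from 194 and 268 reads against 355 and 465. The ratio of the means was 1.44, and the groups did not overlap. Its log2 fold change was 0.34 (95% interval -0.37 to 1.06, adjusted p = 0.477 by limma), and 0.52 with limma-voom.

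*Tsc1* (ENSMUSG00000026812, chromosome 2, 28641228 to 28691167, plus strand) encodes hamartin, which stabilizes TSC2. Its FPKM was 0.418 and 0.391 among CD37 fl/fl against 0.543 and 0.637 among CD37 -/- libraries, from 320 to 720 reads. Both CD37 -/- values were above both CD37 fl/fl values, with a log2 fold change of 0.45 (95% interval -0.21 to 1.11, adjusted p = 0.338 by limma).

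*Tsc2* (ENSMUSG00000002496, chromosome 17, 24595816 to 24632630, minus strand) encodes tuberin, which inactivates RHEB and is a substrate of AKT. Its FPKM was 1.76 and 1.41 among CD37 fl/fl against 1.80 and 2.32 among CD37 -/- libraries, from 897 to 1934 reads. CD37 fl/fl replicate 1 and CD37 -/- replicate 1 were nearly level. The log2 fold change was 0.36 (95% interval -0.31 to 1.03, adjusted p = 0.432 by limma) and 0.19 without CD37 -/- replicate 2 or 0.21 without CD37 fl/fl replicate 2. *Pkd1*, which overlaps 1.88% of the span on the other strand, had an FPKM of at most 0.724.

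*Rheb* (ENSMUSG00000028945, chromosome 5, 24802823 to 24842624, minus strand) encodes the GTPase that activates the mTOR complex 1. Its FPKM was 0.784 and 1.56 among CD37 fl/fl against 1.91 and 2.31 among CD37 -/- libraries, from 478 and 1075 reads against 1349 and 2079. It varied most of the 10 genes between the CD37 fl/fl libraries, where replicate 1 was far below replicate 2. The log2 fold change was 0.86 (standard error 0.37, 95% interval -0.08 to 1.80, unadjusted p = 0.0647, adjusted p = 0.244 by limma). It was 0.41 without CD37 fl/fl replicate 1 and 1.32 without CD37 fl/fl replicate 2.

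As a group, all 10 genes had a log2 fold change above 0, which 64.5% of all tested genes also had, and after quantile normalization *Akt2* and *Rptor* were below 0. The groups did not overlap for 9 genes, all higher in CD37 -/- LSCs, against 42.2% of all tested genes. At an unadjusted p under 0.05, 2 of the 10 genes (*Akt1* and *Pdpk1*) were higher, near the background of 16.5%, and 0 were lower against 5.61%. At an adjusted p under 0.05 there were 0 members (limma), as over all genes. Without CD37 -/- replicate 2 or without CD37 fl/fl replicate 1, the count at an unadjusted p was 0. The median of the 10 genes was 0.46 against 0.23 for all tested genes, and 8 genes lay above the median gene.

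**Figure D2:**
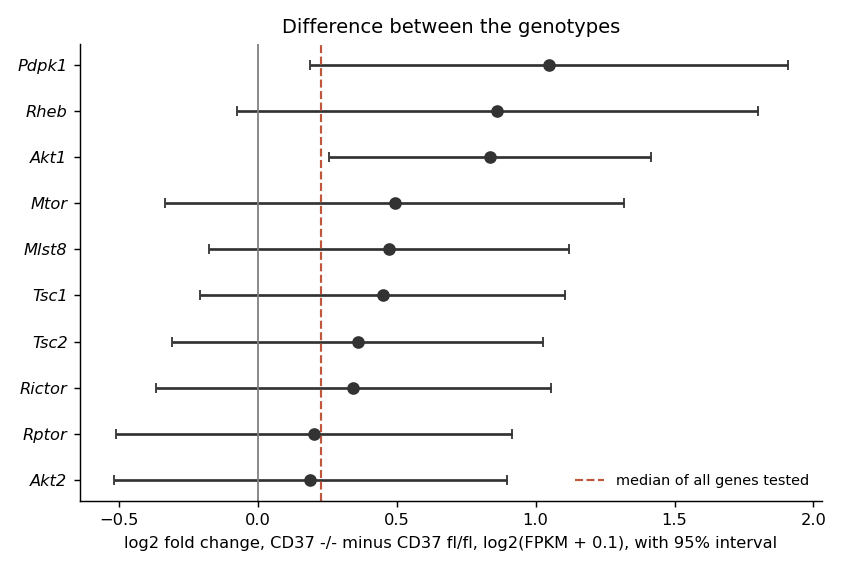
Log2 fold change of each gene, CD37 -/- minus CD37 fl/fl, on log2(FPKM + 0.1), with its 95% interval from limma (2 libraries a group). The dashed line marks the median of all tested genes, 0.23, and only the intervals of *Pdpk1* and *Akt1* lie wholly above 0.

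The libraries did not contribute alike. CD37 -/- replicate 2, the deepest library, held the highest value of 9 of the 10 genes, and all 10 genes were higher there than in CD37 -/- replicate 1, by a median of 0.28 on the log2 scale. Against the mean of the CD37 fl/fl libraries, the members had a median of 0.29 (CD37 -/- replicate 1) and 0.63 (CD37 -/- replicate 2), where all tested genes had 0.18 and 0.26. Between the CD37 fl/fl libraries, 6 members were higher in replicate 2, with differences from -0.54 for *Akt2* to 0.91 for *Rheb*. The part of depth in the values of CD37 -/- replicate 2 was not tested.

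Longer genes were higher in CD37 -/- libraries throughout the table. The median log2 fold change of tested genes was -0.02 for short exon lengths (up to 2487 bases), 0.21 for middle ones and 0.36 for long ones (5051 bases or more), in 3 classes of equal size. The share of genes that were higher without overlap was 25.8%, 43.2% and 57.9% in these classes. The exon lengths of 8 members fell in the long class and those of *Akt1* (4098 bases) and *Mlst8* (4435 bases) in the middle class. *Pdpk1*, *Rheb*, *Mtor* and *Tsc1* were above the median of the long class, *Tsc2* was at 0.36, and *Rictor*, *Rptor* and *Akt2* were below it. *Akt1* and *Mlst8* were above the median of the middle class. What length adds to the values of the members was not tested.

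**Figure D3:**
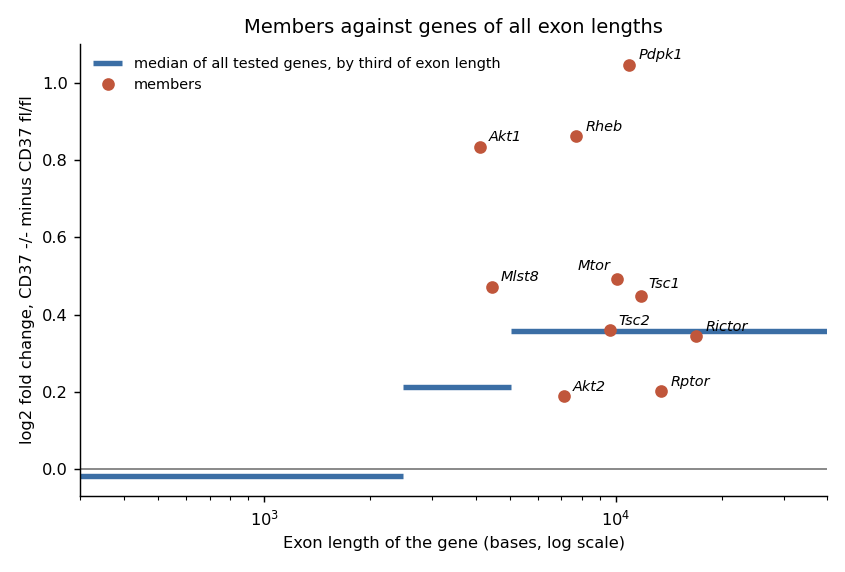
Log2 fold change (CD37 -/- minus CD37 fl/fl) against exon length on a log axis for the 10 genes as points, with the median of all tested genes in each class of exon length as bars. The bars climb from -0.02 to 0.36, and *Pdpk1*, *Rheb* and *Akt1* stand farthest above theirs.

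Levels can be compared between genes only per length of the transcript, so reads were divided by the exon length of each gene and by library size. On this scale *Akt1* was highest, at 53.0 ± 3.59 in CD37 fl/fl and 95.4 ± 13.9 in CD37 -/- LSCs (SD, n = 2 each). *Akt2* came next with 14.8 ± 4.04 and 16.7 ± 1.32. In CD37 fl/fl LSCs there followed *Tsc2* (6.06 ± 0.957), *Rheb* (6.04 ± 2.83), *Mlst8* (4.71 ± 0.262), *Mtor* (3.18 ± 0.470), *Rptor* (2.90 ± 0.128), *Pdpk1* (1.99 ± 0.363), *Tsc1* (1.71 ± 0.0819) and *Rictor* (0.831 ± 0.117). The neighbours *Tsc2* and *Rheb*, *Rheb* and *Mlst8*, *Mtor* and *Rptor*, and *Pdpk1* and *Tsc1* overlapped between libraries, and the other neighbours did not. The obligate partners *Tsc1* and *Tsc2* thus differed in level, and *Rictor* was below *Rptor*. In CD37 -/- LSCs the order changed only by *Rheb* (10.9 ± 1.45) passing *Tsc2* (7.89 ± 1.4) and *Pdpk1* (4.99 ± 1.85) passing *Rptor* (3.68 ± 0.221). *Rheb* and *Tsc2* did not overlap there, while *Pdpk1* and *Rptor* did. Per gene span, as deposited, *Mlst8* would rank at 2 and *Rptor* at 10 in CD37 fl/fl LSCs, in place of 5 and 7. The exon length is the union over all annotated transcripts, and whether intron reads were counted is not given in the sources used here.

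**Figure D4:**
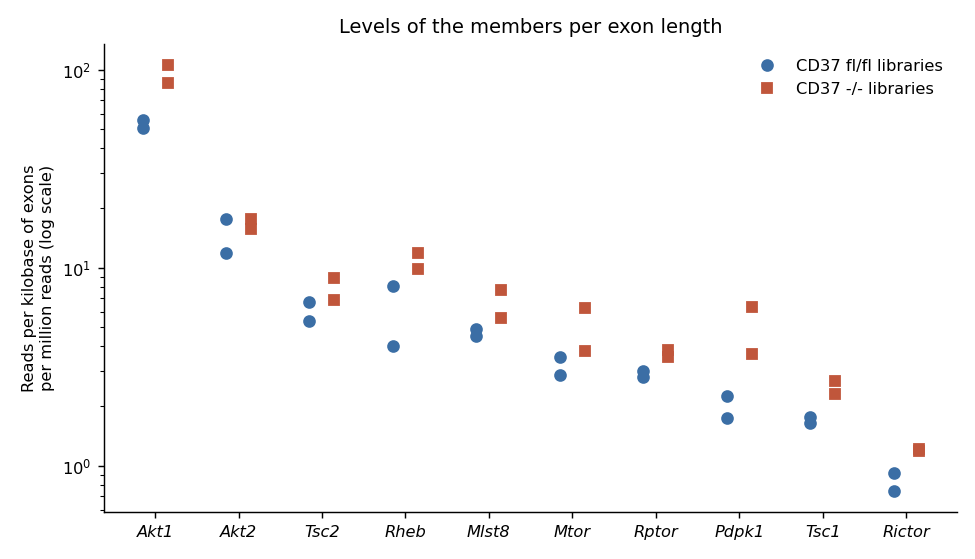
Reads per kilobase of exons, scaled to library size (log axis) of the 10 genes, CD37 fl/fl libraries as circles and CD37 -/- libraries as squares, in the order of the CD37 fl/fl means. *Akt1* is highest in all 4 libraries and *Rictor* lowest.

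In reads, ratios of partner genes within a library do not depend on how libraries are scaled. Per exon length, *Akt1* had 2.87 and 4.67 times the reads of *Akt2* in CD37 fl/fl against 5.44 and 5.98 times in CD37 -/- libraries. The share of *Akt1* among this pair was higher in both CD37 -/- libraries, and CD37 fl/fl replicate 1 was the lowest. The log2 ratio, on log2(FPKM + 0.1), was 2.24 ± 0.48 against 2.89 ± 0.10 (SD, n = 2), a difference of 0.65 (exact permutation test, two-sided, p = 0.333). That is the smallest p that 2 libraries against 2 allow, and adjusted over the 6 ratios computed this exact p was 1. Without CD37 fl/fl replicate 1 the difference was 0.31, and 0.98 without CD37 fl/fl replicate 2.

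The ratio of *Rictor* to *Rptor*, which weighs the scaffold of the mTOR complex 2 against that of the mTOR complex 1, also did not overlap between the groups. It was 0.266 and 0.305 among CD37 fl/fl against 0.336 and 0.317 among CD37 -/- libraries per exon length, a log2 difference of 0.20. On log2(FPKM + 0.1) the difference was 0.14 (exact permutation p = 0.333, two-sided). The other 4 ratios overlapped on log2(FPKM + 0.1), and per exon length they were as follows. *Tsc1* to *Tsc2* was 0.262 and 0.306 against 0.332 and 0.303, and *Mtor* to *Mlst8* was 0.582 and 0.777 against 0.677 and 0.810. *Rheb* to *Tsc2* was 0.600 and 1.49 against 1.43 and 1.34, so that CD37 fl/fl replicate 1 alone stood low, and on log2(FPKM + 0.1) the difference of 0.50 was -0.10 without that library. *Pdpk1* to *Akt1* was 0.0343 and 0.0404 against 0.0430 and 0.0598 and did not overlap in reads, while its log2(FPKM + 0.1) ratio did.

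The remaining subunits and paralogs of these complexes formed a list of 11 genes. Of 7 tested, 4 had a log2 fold change above 0 and 3 below, where 64.5% of all tested genes were above 0. The median was 0.01 (0.25 without CD37 fl/fl replicate 2 and -0.09 without CD37 fl/fl replicate 1), against 0.23 for all tested genes. At an unadjusted p under 0.05 (limma), 1 gene of the list was higher, where 16.5% of all tested genes were. That gene was *Tti1*, a cochaperone that assembles mTOR and related kinases, with an FPKM of 0.378 and 0.551 against 0.800 and 1.13 and a log2 fold change of 0.92 (adjusted p = 0.194 by limma). Its partners *Telo2* and *Tti2* had 0.01 and 0.15. *Mapkap1*, a core subunit of the mTOR complex 2, had an FPKM of 0.210 and 0.207 against 0.277 and 0.316 (log2 fold change 0.36, adjusted p = 0.441 by limma). *Akt1s1*, which encodes the AKT substrate and mTOR complex 1 inhibitor PRAS40, had 9.84 and 10.2 against 8.56 and 8.27 (-0.25, and 0.13 after TPM rescaling). *Tbc1d7*, the third TSC subunit, had a log2 fold change of -0.09 and *Rhebl1*, a paralog of *Rheb*, of -0.17, and both were above 0 after TPM rescaling.

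A further 4 genes of this list lay under the filter. *Deptor*, an inhibitor of both mTOR complexes, had 84 and 95 reads among CD37 fl/fl against 260 and 404 reads among CD37 -/- libraries, and *Prr5*, a subunit of the mTOR complex 2, had 51 and 119 against 8 and 15 reads. *Deptor* was thus higher and *Prr5* lower in both CD37 -/- libraries, by log2 fold changes of 1.56 and -3.08 in limma-voom on recovered reads (adjusted p = 0.0844 and 0.0792 with Benjamini-Hochberg adjustment). On log2(FPKM + 0.1) with all genes above 0 tested, the same differences were 0.62 and -1.07 (adjusted p = 0.235 and 0.244, limma). *Prr5l*, a paralog of *Prr5*, had 90 and 18 against 35 and 155 reads, with no order between the groups.

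Around the complexes, 6 further lists covered the inputs and outputs of the pathway. Together with the list above they held 106 genes, of which 81 were tested. The median was 0.24, that of all tested genes being 0.23. A log2 fold change above 0 was found for 59 of the 81, where 64.5% of all tested genes had one. At an unadjusted p under 0.05, 14 genes were higher and 1 was lower, where all tested genes had 16.5% and 5.61%, the background for each list below, and 0 had an adjusted p under 0.05 (limma), with the lowest at 0.107. After quantile normalization the medians of the other subunits (-0.23), the amino acid sensors (-0.16), the mTOR complex 1 substrates (-0.08) and the FOXO targets (-0.11) were below 0.

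**Figure D5:**
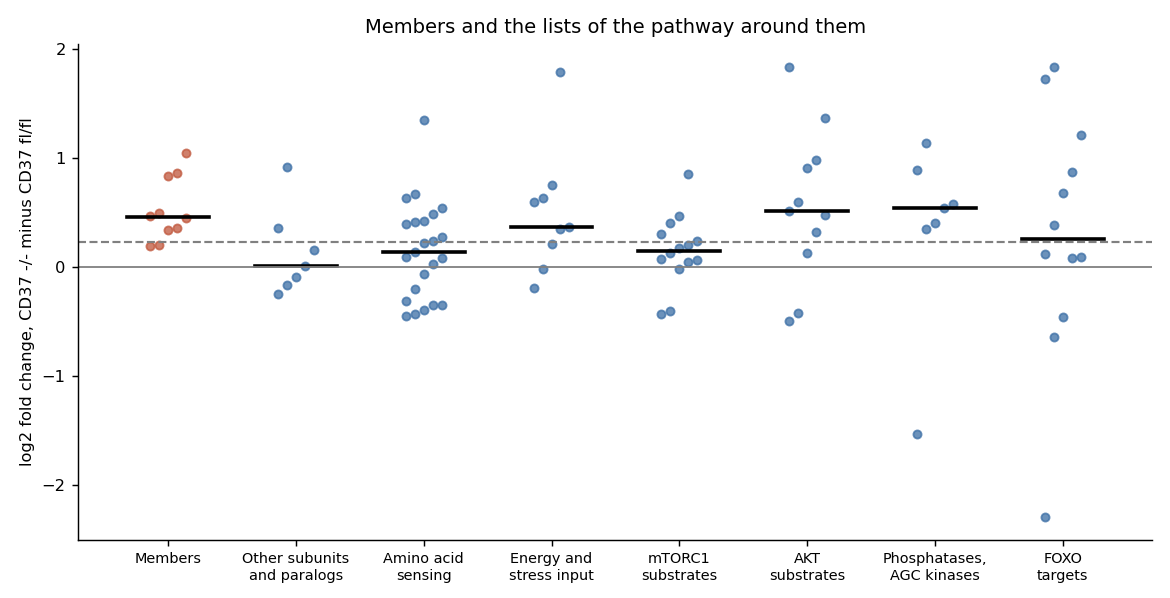
Log2 fold change (CD37 -/- minus CD37 fl/fl) of every tested gene of the members and of the 7 lists around them, each point a gene and each bar the median of the list. The dashed line is the median of all tested genes, 0.23, and list medians run from 0.01 (other subunits and paralogs) to 0.55 (phosphatases, inhibitors and AGC kinases).

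Among the amino acid sensors at the lysosome, which recruit the mTOR complex 1 through the Rag GTPases, 15 of 23 tested genes were above 0 and 8 below, with a median of 0.14 (0.03 without CD37 -/- replicate 2 and 0.07 without CD37 fl/fl replicate 1). *Flcn*, which encodes folliculin, an activator of RagC and RagD, was the only one at an unadjusted p under 0.05. Its FPKM was 0.894 and 1.37 among CD37 fl/fl against 2.63 and 3.39 among CD37 -/- libraries (log2 fold change 1.35, adjusted p = 0.141 by limma). Of the energy and stress inputs, 7 of 9 were above 0 (median 0.37, and 0.29 to 0.54 with 1 library left out). *Prkab1*, which encodes a regulatory subunit of AMPK, the energy sensor that restrains mTOR, had 0.448 and 0.708 against 1.41 and 3.42, with CD37 -/- replicate 2 far above the rest (log2 fold change 1.79, adjusted p = 0.161 by limma). Without that library its log2 fold change was 1.18 (unadjusted p = 0.0580 by limma), and without CD37 fl/fl replicate 1 it was 1.51 (unadjusted p = 0.0703).

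Of the mTOR complex 1 substrates and effectors, 11 of 14 were above 0 (median 0.15, and 0.09 to 0.23 with 1 library left out, the lowest without CD37 fl/fl replicate 1 and the highest without CD37 -/- replicate 1, with 0.09 also without CD37 -/- replicate 2). *Rps6kb1*, which encodes S6 kinase, had an FPKM of 0.731 and 0.900 against 1.38 and 1.73 (log2 fold change 0.86, adjusted p = 0.177 by limma), and it was the only one of this list at an unadjusted p under 0.05. Of the AKT substrates, 9 of 11 were above 0, where 64.5% of all tested genes were. Their median was 0.51, and 0.35 to 0.68 with 1 library left out. At an unadjusted p under 0.05 (limma), 5 were higher, where 16.5% of all tested genes were. These were *Cdkn1b*, *Casp9* and *Chuk*, the largest 3, with *Gsk3a* and *Mdm2*. *Cdkn1b*, which encodes the cell cycle inhibitor p27, had 3.87 and 2.29 against 10.9 and 11.0 (log2 fold change 1.84, adjusted p = 0.114 by limma). *Casp9*, an initiator caspase, had 0.181 and 0.289 against 0.582 and 0.964 (1.37, adjusted p = 0.159 by limma). *Chuk*, which encodes an IκB kinase, *Gsk3a*, a kinase of glycogen synthase, and *Mdm2*, the ubiquitin ligase of p53, had log2 fold changes of 0.99, 0.91 and 0.60. *Foxo3* and *Bad*, both proteins that AKT holds inactive, had -0.42 and -0.49 with unadjusted p of 0.176 and 0.0903 (limma).

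The list of AKT phosphatases, inhibitors and related AGC kinases had 6 of 7 tested genes above 0 and a median of 0.55. At an unadjusted p under 0.05 (limma), 2 were higher, where 16.5% of all tested genes were. The median was 0.39 to 0.63 with 1 library left out, 0.21 with a pseudocount of 1 and 0.17 after quantile normalization. *Sgk1*, which PDK1 and the mTOR complex 2 activate, had an FPKM of 0.152 and 0.216 against 0.344 and 0.517 (log2 fold change 0.89, adjusted p = 0.202 by limma). *Trib3*, which encodes a pseudokinase that binds AKT, had 2.40 and 14.6 against 2.10 and 1.89, so that CD37 fl/fl replicate 2 alone was high.

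Genes known to be transcribed by FOXO factors, which AKT keeps out of the nucleus, went both ways. Of 12 tested, 9 were above 0 and 3 below, and 4 were higher and 1 lower at an unadjusted p under 0.05 (64.5% above 0, 16.5% higher and 5.61% lower over all tested genes). The median of 0.25 was 0.02 without CD37 -/- replicate 2, 0.52 without CD37 -/- replicate 1 and 0.49 without CD37 fl/fl replicate 1. *Ccng2*, an atypical cyclin, had an FPKM of 0.792 and 0.778 against 2.66 and 3.01 (log2 fold change 1.73, adjusted p = 0.107 by limma). *Cited2*, a transcriptional coregulator, had a log2 fold change of 0.68, and *Cdkn1b* is also on this list. *Klf2*, a transcription factor of quiescence, was the lower gene, with 194 and 143 against 32.0 and 35.7 (-2.30, adjusted p = 0.107 by limma). *Gadd45a* and *Pik3ip1* had -0.46 and -0.64 with unadjusted p of 0.0914 and 0.152 (limma).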

How the data were processed

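Sequencing libraries were made from poly(A) RNA of sorted LSCs with a dUTP strand-marking protocol. The authors deposited linear FPKM values, with 1 column for each library. The processing notes of the submitters name fastp 0.20.1, STAR 2.7.7a, featureCounts 2.0.0, edgeR and the build mm39, and the annotation and the strand setting are not given in the sources used here. With gene spans of GENCODE M21 (GRCm38), to which 17045 of the 17104 identifiers (99.7%) matched, 98.9% of the nonzero values in each library came out as whole reads within 0.05 reads, where chance gives 10.0%. With exon lengths 11.6% to 11.9% of the low values did. Coordinates are those of GRCm38. Recovered reads served for the read counts, the ratios per exon length and 1 alternative. Levels were the FPKM rescaled from gene span to exon length, and depth was the library total that the FPKM imply.

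Genes whose FPKM averaged 0.1 or more were tested on log2(FPKM + 0.1) with lmFit and eBayes with a trend (limma 3.58.1, R 4.3.3), Benjamini-Hochberg adjustment over all 11774 genes and a threshold of 0.05. The filter and the pseudocount were set low because a minimum FPKM of 1 leaves out 5 of the members. Ratios were compared with an exact permutation test. The members, lists and tests were chosen with earlier results of these data known. Named are all members, the genes of the list of other subunits, and per list up to 3 genes each way with an unadjusted p under 0.05 and no overlap. The single marker genes, *Gsk3a*, *Mdm2*, *Cited2*, *Foxo3*, *Bad*, *Trib3*, *Gadd45a* and *Pik3ip1* were named after their values were seen. Some genes that the rule names are not reported here. Code was tested on simulated data. Tables and figures were made with matplotlib 3.10.9, scipy 1.17.1, numpy 2.4.6 and pandas 2.3.3 in Python 3.11.15. The alternatives were a pseudocount of 1, that with a mean FPKM of at least 1, all genes above 0, 3 scalings, eBayes without a trend or robust, a replicate block, each library left out and limma-voom on genes averaging 10 or more reads.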

Additional observations from a re-analysis of the deposited data

How the results depend on the processing

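At an adjusted p under 0.05, 0 genes were called under each of the 14 alternatives (limma). The number of genes at an unadjusted p under 0.05, 2606, was 1626 with a pseudocount of 1 and a mean FPKM of at least 1, and 1136 to 2169 with a library left out. For the members, the 2 genes at an unadjusted p became 4 after TPM rescaling, 1 with all genes above 0, with the pseudocount and filter of 1 (where 5 members were tested) or after quantile normalization, and 0 to 2 with a library left out. The median of the members, 0.46, was 0.78 after TPM rescaling, 0.21 with a pseudocount of 1, 0.10 after quantile normalization (median of all genes -0.03), 0.30 (0.295) after division by the upper quartile and 0.29 to 0.63 with a library left out. *Akt1* kept an unadjusted p under 0.05 in 12 of 14 alternatives and *Pdpk1* in 8 of 13. Reversed were *Akt2* (-0.085 after quantile normalization, -0.081 without CD37 fl/fl replicate 2) and *Rptor* (-0.12 after quantile normalization). The difference between the groups in the log2 ratio of *Pdpk1* to *Akt1*, 0.21, was 0.45 in recovered reads and -0.38 with a pseudocount of 1.

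For the 7 lists together, the 14 higher genes were 24 after TPM rescaling, 9 after quantile normalization or the upper quartile and 2 to 10 with a library left out. The 1 lower gene was joined to give 2 with all genes above 0 or with limma-voom, 6 after quantile normalization, 5 with the upper quartile and 1 to 3 with a library left out. The median of 0.24 was 0.61 after TPM rescaling, 0.12 with a pseudocount of 1 and a mean FPKM of at least 1, 0.11 with a pseudocount of 1 or the upper quartile, -0.0033 after quantile normalization and 0.15 to 0.31 with a library left out. Reversed were *Akt1s1* (0.13), *Rhebl1* (0.13) and *Tbc1d7* (0.25) after TPM rescaling, *Rhebl1* without CD37 fl/fl replicate 2 (0.26, against -0.60 without CD37 fl/fl replicate 1), *Telo2* after quantile normalization (-0.23), with the upper quartile (-0.16) and without CD37 fl/fl replicate 1 (-0.095), and *Tti2* after quantile normalization (-0.16) and with the upper quartile (-0.020). The cause was not tested. With the replicate number as a replicate block, 2475 genes and 3 members had an unadjusted p under 0.05 and 0 an adjusted p under 0.05 (limma). Same-numbered libraries did not deviate together (correlation -0.059 over 11774 genes). With so few libraries, this cannot show whether same-numbered samples share a batch or an origin. With 2 libraries a group, the intervals of 8 members included 0. Each member had at least 194 reads in every library, and the part of depth in these intervals was not tested.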
